A study of Mus musculus with 19 samples.

Results

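The 28 genes described here make, transport and sense the inhibitory transmitter GABA, anchor its receptors, or mark the neurons that release it, in mouse dorsal hippocampus. They were picked by symbol for their known roles, with earlier results of these data known, and all 28 were found among the 51789 genes of the count table. By role they are 5 genes of GABA synthesis, packaging, uptake and breakdown (Gad1, Gad2, Slc32a1, Slc6a11, Abat), 9 GABA-A receptor subunits (Gabra2, Gabra3, Gabra4, Gabra5, Gabrb1, Gabrb2, Gabrg1, Gabrg3, Gabrd) and 2 GABA-B receptor subunits (Gabbr1, Gabbr2). The others are 2 genes of the inhibitory postsynaptic scaffold (Gphn, Nlgn2), 2 chloride transporters (Slc12a2, Slc12a5), 2 glycine receptor subunits (Glrb, Glra2) and 6 interneuron markers (Sst, Pvalb, Lamp5, Npy, Cck, Reln).

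Male C57BL/6J mice aged 2 to 4 months gave ribosome-depleted total RNA of dorsal hippocampus, sequenced in 19 libraries from 2 experiments. In experiment 1, 5 libraries came from mice with both a tetracycline transactivator (tTA) and a dominant negative Nr4A transgene written DN (tTA+/DN+), which acts against a family of nuclear receptors, and 6 came from littermates with tTA alone (tTA+/DN-). All 11 of those mice, controls included, were tTA+ and had the exposure that the labels abbreviate as SOR. In experiment 2 no mouse carried DN: 4 libraries followed SOR (3 tTA+ and 1 tTA-) and 4 came from homecage mice (2 tTA+ and 2 tTA-). The labels do not name the promoter that drives tTA, do not say in which cells DN is made, do not expand SOR and do not give the time between SOR and dissection, and expression of the transgene was not analysed here. They also do not say whether a library holds RNA of 1 animal, so p-values measure the spread between these libraries.

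GABA is made from glutamate by the 2 glutamate decarboxylases, is loaded into vesicles by the vesicular transporter, and is taken up again and broken down in neurons and astrocytes. At GABA-A receptors, which are chloride channels built of several subunits, the mix of subunits sets where the receptor sits and how it responds, while GABA-B receptors act through G proteins. In the hippocampus GABA comes from a diverse minority of neurons, which are told apart by calcium-binding proteins and neuropeptides such as parvalbumin, somatostatin, neuropeptide Y and cholecystokinin.

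Libraries held between 22258159 and 66991576 counts. The smallest was SOR replicate 3 of experiment 2, which stood apart from the other SOR libraries for many of the genes below, and values without it are given beside the results that it moves. The lowest count of any of the 28 genes in any library was 255, for Glra2. On the neuron, astrocyte and oligodendrocyte lists, of 6 to 8 genes each, no gene was at 0 in any group. That was also so for the choroid plexus and blood lists, so it does not tell which cell types the tissue held. Levels are given as CPM, counts scaled by library size. Summed choroid plexus markers ranged from 19.8 to 4120 CPM among the 6 experiment 1 control libraries alone. In bulk tissue, fewer cells of a type and less RNA per cell cannot be told apart. Exons of 6 members are overlapped by another gene, and the strand setting of the counting is not given in the sources used here, so reads could be shared for Slc32a1, Gabra4, Gabrb1, Gabra5, Gphn and Reln.

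Levels were first compared between genes in the 4 homecage libraries, per kilobase of exon, because a long transcript collects more reads. Values up to the plot of levels are CPM per kilobase, as mean ± SD with n = 4, unless another scale is named. The 28 genes spanned a wide range, from Cck at 178 ± 30.1 and Sst at 148 ± 25.9 down to Gabrg3 at 2.86 ± 0.257. Among the 22242 genes that passed the filter on low counts in the SOR comparison and had a known length, Cck lay above 99.5% and Gabrg3 above 53.0%. Of the 27 pairs of neighbours in this order, 19 had overlapping ranges over the 4 libraries, so much of the order in the middle is not resolved. Levels also rest on the length used. Over the longest transcript instead of all exons, Gad1 came to 101, Abat to 61.4, Slc12a2 to 23.2, Glrb to 84.8, Gabrb2 to 72.3 and Cck to 291. Gabrg1 came to 6.80, Lamp5 to 7.88 and Reln to 12.6. Each of these was more than 1.5 times its level over all exons. The ranks by both lengths had a Spearman rho of 0.978 over the 28 genes.

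Cck encodes cholecystokinin, a peptide of basket interneurons that many pyramidal cells also transcribe, and Sst encodes somatostatin, a peptide of dendrite-targeting interneurons. Npy (56.0 ± 7.79), which encodes neuropeptide Y, came next among the markers, followed by Pvalb (29.4 ± 4.88), which encodes the calcium buffer of fast-spiking basket cells. Reln (6.20 ± 0.555), a secreted protein of outer-layer interneurons, and Lamp5 (5.25 ± 0.361), a marker of neurogliaform cells, were the lowest of the 6. The ranges of Cck and Sst overlapped, and both lay above every other member in every homecage library per kilobase of all exons. Over the longest transcript instead, Gabbr1 (153) overlapped Sst (148), and Cck (291) was above both.

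The Sst promoter is printed because it was the sole promoter, among those of the 25 members matched, that held the full cyclic AMP response element (CRE), the motif through which CREB acts and for which this gene is a textbook case. The stretch below is on the minus strand at chr16:23890845-23890932 of GRCm38.p6 (RefSeq), runs 5′ to 3′, and has the CRE in capitals, 48 bases before the start that RefSeq gives. GENCODE M21 places the outer end of Sst further upstream, at 23890958, so by that annotation the same letters lie inside the gene.
Sst: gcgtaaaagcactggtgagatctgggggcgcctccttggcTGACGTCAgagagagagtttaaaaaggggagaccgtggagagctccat
RefSeq promoter windows of 300 bases matched 25 of the 28 genes, in 32 windows. TGACGTCA, which reads the same on both strands, was in 1.79% of all 32851 such windows. The shorter CRE core TGACG, searched on both strands and contained in the full CRE, was in 20.8% of windows and in those of 6 members (Cck, Gabrb2, Gad2, Glrb, Nlgn2 and Sst). The NBRE, the monomer site of the Nr4A receptors, spelled AAAGGTCA and searched on both strands, was in 1.51% of all windows and in none of these genes' windows. These are matches of letters and not measured sites.

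Gad1 and Gad2 encode the glutamate decarboxylases of the cell body and of the nerve terminal. Gad1 stood at 47.8 ± 5.82 and Gad2 at 26.9 ± 5.44, a ratio of 1.80 ± 0.135, and Slc32a1, the vesicular GABA transporter, at 7.28 ± 1.43. All exons of Gad1 together come to 7639 bases and its longest transcript to 3601. Over the longest transcript instead of all exons its level came to 101, beside 27.5 for Gad2. Abat, the transaminase that degrades GABA, stood at 36.8 ± 4.60, and Slc6a11, a GABA transporter of astrocytes, at 16.3 ± 1.88. Gad1 exceeded Gad2 in every homecage library on this scale.

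Among the GABA-A subunits the order was Gabra5 (69.1 ± 4.48), Gabrb2 (45.4 ± 3.30), Gabra4 (23.3 ± 0.688), Gabrb1 (22.4 ± 1.77), Gabra2 (12.2 ± 0.868), Gabrd (11.7 ± 1.31), Gabra3 (7.996 ± 1.47), Gabrg1 (4.12 ± 1.11) and Gabrg3 (2.86 ± 0.257). Gabra5, which pyramidal cells of the hippocampus use for tonic inhibition, did not overlap Gabrb2, a beta subunit common in GABA-A receptors. Over the longest transcript instead, the means were 77.0 and 72.3 and the libraries overlapped. Gabra4 and Gabrb1 overlapped, as did Gabra2, an alpha subunit of synaptic receptors, and Gabrd, the delta subunit that pairs with Gabra4 outside synapses of dentate granule cells. The gamma subunits measured here closed the list.

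Of the 9 subunit genes, 6 lie in clusters with another member (GRCm38, GENCODE M21). On chromosome 5, Gabrg1 (70751047 to 70842617, minus strand), Gabra2 (70957597 to 71095849, minus) and Gabra4 (71569749 to 71658308, minus) are followed by Gabrb1 (71658113 to 72149037, plus), which overlaps Gabra4 at its start. On chromosome 7, Gabrg3 (56716465 to 57387188, minus) adjoins Gabra5 (57407672 to 57510059, minus). Within each cluster the homecage levels differed widely: Gabrg1 stood at 4.12 and Gabra4 at 23.3, and Gabrg3 at 2.86 beside Gabra5 at 69.1. Gabrd on chromosome 4 (155384980 to 155398112, minus), Gabrb2 on chromosome 11 and Gabra3 on chromosome X lie apart from the other subunits, and Glra2 lies on chromosome X (165129017 to 165327393, minus).

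Gabbr1 (103 ± 2.86) exceeded its obligate partner Gabbr2 (33.8 ± 3.21) by a ratio of 3.08 ± 0.294. Gphn, which encodes gephyrin, the lattice under inhibitory receptors, stood at 31.3 ± 1.93, and Nlgn2, an adhesion protein of inhibitory synapses, at 9.64 ± 0.695. Slc12a5, the neuronal chloride exporter, stood at 45.2 ± 2.27, and Slc12a2, a chloride importer, at 13.8 ± 1.003, a ratio of 3.27 ± 0.136. The same ratio was 2.90 ± 0.421 (n = 6) in experiment 1 controls, 2.92 ± 0.266 (n = 5) in DN libraries and 3.45 ± 0.988 (n = 4) after SOR in experiment 2, where replicate 3 reached 4.90 and the next highest library 3.16. Glrb, the glycine receptor beta subunit, stood at 55.2 ± 6.33 and Glra2, an alpha subunit, at 4.77 ± 1.37.

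**Figure D1:**
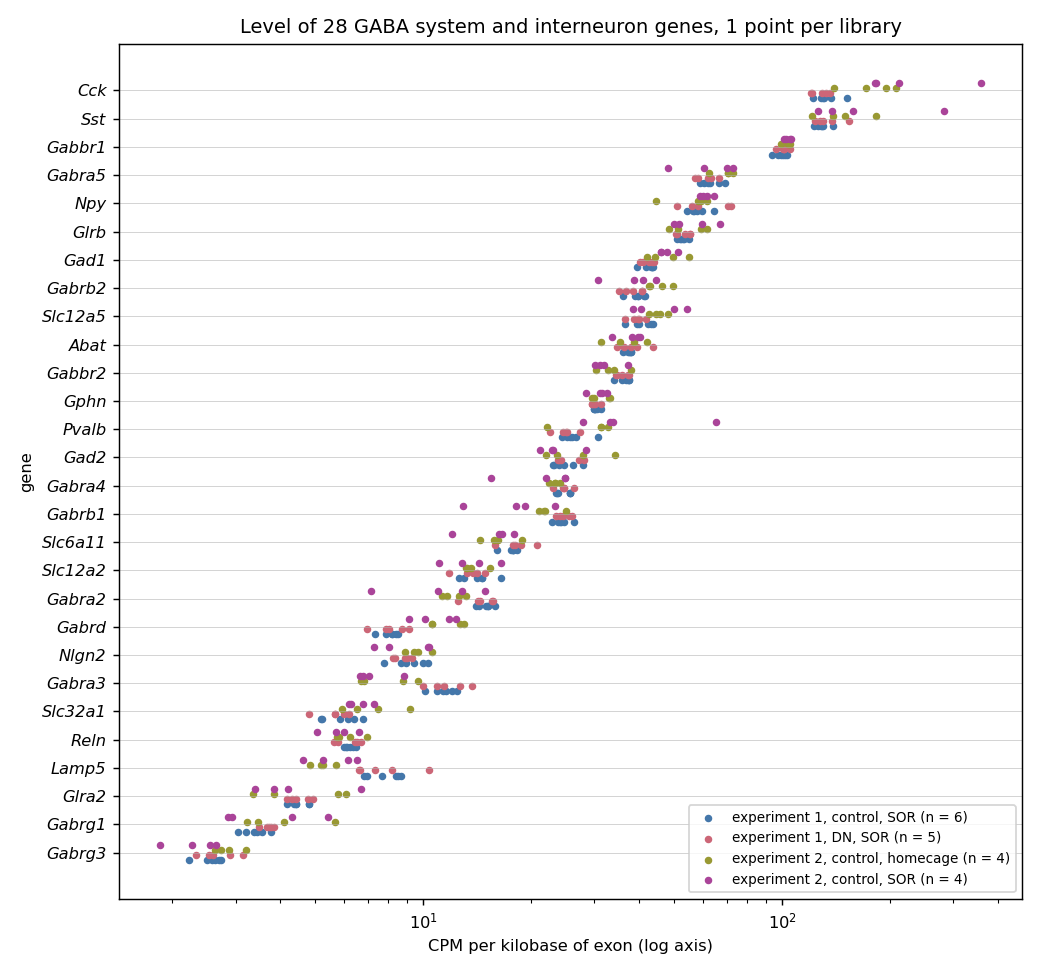
Level of each of the 28 genes as CPM per kilobase of exon (log axis), with 1 point for each of the 19 libraries and the genes ordered by the homecage mean. Cck and Sst lie at the top and Gabrg3 at the bottom, and the 2 experiments were scaled separately.

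Spread between libraries of a group differed by experiment, where groups of experiment 1 were all tTA+ and those of experiment 2 mixed tTA+ and tTA- libraries. The coefficient of variation of a gene had a median over the 28 genes of 5.43% in experiment 1 controls and 7.10% in DN libraries, against 10.4% in homecage libraries and 15.3% after SOR in experiment 2. Gphn was the steadiest in experiment 1 (1.71% in controls) and Gabbr1 in experiment 2 (2.77% in the homecage). The widest were Slc32a1 at 11.0% in experiment 1 controls, Lamp5 at 20.01% in DN libraries, Glra2 at 28.7% in the homecage and Pvalb at 42.8% after SOR. By genotype in experiment 2, with both exposures together, the median was 14.4% in tTA+ (n = 5) and 8.97% in tTA- libraries (n = 3). Glra2 had 23.4% and 7.49% in the same order. The part of genotype in the spread was not tested.

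Slc12a2 is also used by choroid plexus, a secretory epithelium whose markers differed widely between libraries. In 4 of 4 groups the library highest in Slc12a2 CPM was also the library highest in the summed CPM of 8 choroid plexus markers. In experiment 1 controls, replicate 1 had 180.0 CPM of Slc12a2 and 4120 CPM of those markers, and the other 5 libraries had 138 to 159 and 19.8 to 1349 CPM. In SOR libraries of experiment 2, replicate 2 had 180.0 CPM beside 2185 CPM, and the others had 121 to 156 beside 23.3 to 991. Below the top library of that group the order was not shared: SOR replicate 1 had 140 CPM of Slc12a2 beside 991 CPM, and SOR replicate 4 had 156 beside 56.6. The part of choroid plexus in the Slc12a2 values was not tested.

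The first comparison asked whether DN mice differed from control littermates after SOR. None of the 28 genes passed the test (edgeR quasi-likelihood test, Benjamini-Hochberg adjusted p under 0.05 over 22391 genes), where 2 of all genes did, or 0.00893%. DESeq2 and limma-voom called 0 of the 28 as well. At an unadjusted p under 0.05 there was 1 member, Gabrg1, against 3.83% of all genes. No member had groups that did not overlap, which was so for 0.299% of all genes. The median log2 change of the 28 was 0.0014 beside 6.2e-05 over all genes tested, with 15 higher and 13 lower.

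GABA synthesis genes overlapped between DN and control libraries. Gad1 in DN replicates 1 to 5 measured 331, 307, 336, 313 and 326 CPM, and in controls from 302 to 333 with a median of 330. Gad2 measured 164, 142, 160, 141 and 139 CPM in DN libraries and 135 to 163, median 143, in controls. Their log2 changes were -0.0090 (SE 0.037) and 0.037 (SE 0.056). Slc32a1, the vesicular transporter, measured 15.9, 15.9, 17.3, 16.8 and 13.5 CPM in DN libraries and 14.5 to 19.04, median 16.8, in controls (log2 change -0.07, SE 0.077).

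Gabrg1, a gamma subunit also transcribed in astrocytes, had the smallest p of the 28. Its CPM in DN replicates 1 to 5 was 28.9, 29.7, 30.2, 29.2 and 27.4, and in control replicates 1 to 6 it was 25.2, 29.7, 28.03, 24.0, 27.0 and 26.6. The DN libraries were mostly above the controls, but control replicates 2 and 3 lay inside the DN range. The log2 change was 0.12 (SE 0.053, 95% interval 0.0083 to 0.23), with an unadjusted p of 0.0362 and an adjusted p of 0.999 in edgeR.

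Interneuron peptides also overlapped. Sst measured 111, 93.6, 99.4, 92.1 and 89.3 CPM in DN libraries and 88.5 to 99.9, median 92.9, in controls (log2 change 0.06, edgeR unadjusted p = 0.226). For Pvalb the DN libraries had 26.2, 25.5, 28.5, 23.4 and 25.998 CPM and the controls 25.4 to 32.0, median 26.9 (log2 change -0.09, edgeR unadjusted p = 0.166). DN replicates 1 and 3 were the highest of all 11 libraries for Npy, at 39.98 and 40.9 CPM. The other DN libraries had 33.0, 31.7 and 28.9 and the controls 30.8 to 36.4, with a log2 change of 0.08 (SE 0.081).

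The intervals of this comparison were narrow. All 28 of the 95% intervals lay within 0.5 log2 units of 0, a fold of 1.41, and the widest, that of Lamp5, ran from -0.26 to 0.25. With single libraries left out, the log2 changes of the 7 genes given by library above stayed between -0.12 (Pvalb) and 0.15 (Gabrg1). Of 20 other genes of the GABA system and 25 other interneuron genes tested, 0 passed in edgeR and 0 had an unadjusted p under 0.05. The smallest p-values among these belonged to Gabrr2, a rho subunit (log2 change 0.36, unadjusted p = 0.0924), and Gabrq, the theta subunit (0.61, unadjusted p = 0.0955), both near 1 CPM or below.

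**Figure D2:**
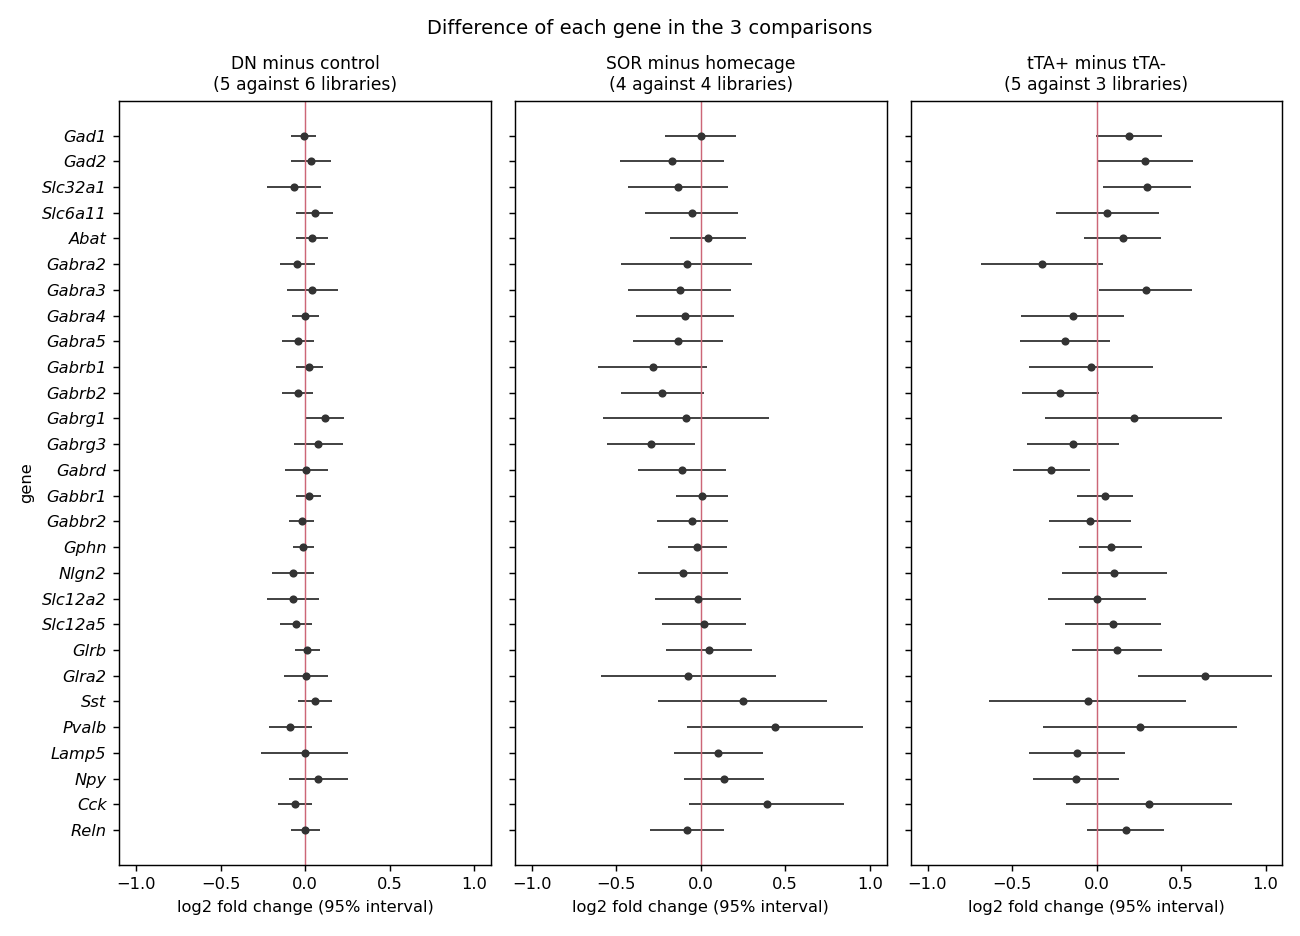
Log2 fold change of each of the 28 genes (point) with its 95% interval (bar) from edgeR, in the DN, SOR and tTA comparisons. The DN intervals all lie within 0.5 of 0, and those of the other 2 comparisons are wider, with Glra2 in the tTA comparison the farthest from 0.

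The second comparison set SOR against homecage in mice without DN. Again 0 of the 28 genes passed the test in edgeR, DESeq2 or limma-voom, beside 20 of 22305 genes in edgeR, or 0.0897%. One member, Gabrg3, had an unadjusted p under 0.05, against 7.60% of all genes, and no member had groups that did not overlap, against 5.71%. The median log2 change of the 28 was -0.06, with 9 higher and 19 lower, beside 0.0076 and 51.5% higher over all genes. Without SOR replicate 3 that median was -0.0044, with 13 higher and 15 lower.

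All 9 GABA-A subunits had log2 changes below 0, from -0.30 to -0.08. The SOR group held 3 tTA+ libraries of 4 and the homecage group 2 of 4, and with tTA as a covariate all 9 were still below 0, from -0.28 to -0.018. Dentate granule cell markers had log2 changes below 0 in 6 of 8, with 0 called in edgeR, a median of -0.32 and sums of 329 to 643 CPM after SOR and 375 to 712 CPM in the homecage. Oligodendrocyte markers were above 0 in 7 of 8 (median 0.14), astrocyte markers in 5 of 8 (median 0.11) and choroid plexus markers in 8 of 8 (median 2.16). Of these, 2, 2 and 4 had an unadjusted p under 0.05 in edgeR, all higher, against 7.60% of all genes, and 0 were called. CA3 and thalamus markers had medians of -0.0026 and -0.0084. The part of these lists in the subunit values was not tested. Gabrg3, a gamma subunit, measured 31.5, 27.1, 22.1 and 30.4 CPM in SOR replicates 1 to 4 and 31.3, 38.4, 34.3 and 32.5 CPM in homecage replicates 1 to 4. Only SOR replicate 1 exceeded a homecage library. The log2 change was -0.30 (SE 0.12, 95% interval -0.56 to -0.03, edgeR unadjusted p = 0.0299, adjusted p = 0.625), and without SOR replicate 3 it was -0.20 (adjusted p = 0.59). No member had an unadjusted p under 0.05 in edgeR with tTA as a covariate, in tTA+ mice alone, or without homecage replicate 2 or 3. With the replicate number as a block, 4 members did.

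The beta subunits Gabrb2 and Gabrb1 gave the next smallest p-values. Gabrb2 measured 284, 245, 195 and 260 CPM after SOR and 295, 315, 270 and 273 CPM in the homecage, a log2 change of -0.23 (SE 0.11, edgeR unadjusted p = 0.0666). Gabrb1 measured 251, 321, 179 and 266 CPM after SOR and 292, 346, 303 and 300 CPM in the homecage, a log2 change of -0.29 (SE 0.15, edgeR unadjusted p = 0.078). In both genes SOR replicate 3 was the lowest library and at least 1 other SOR library was inside the homecage range. Without SOR replicate 3 the changes were -0.13 and -0.15, and 6 of the 9 subunits were below 0.

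Among the synthesis genes, Gad1 measured 351, 351, 365 and 392 CPM after SOR and 321, 338, 420 and 380 CPM in the homecage. Gad2 measured 135, 135, 124 and 167 CPM after SOR and 129, 138, 201 and 163 CPM in the homecage. The groups of both overlapped, and the log2 changes were -0.00087 (SE 0.096) and -0.17 (SE 0.14). Slc32a1 measured 17.4, 17.6, 19.003 and 20.4 CPM after SOR and 16.6, 18.2, 25.7 and 20.9 CPM in the homecage, where replicate 3 was the highest of all 8 libraries for all 3 of these genes. Its log2 change was -0.13 (SE 0.13). Without homecage replicate 3 the changes of Gad1, Gad2 and Slc32a1 were 0.074, -0.035 and 6.5e-05. For Gad2 the change was -0.36 in tTA+ mice alone, and without other single libraries it ran down to -0.27. Over alternatives other than single libraries left out, Gad1 ran from -0.12 to 0.0058 and Slc32a1 from -0.30 to -0.11.

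Pvalb, Sst and Cck were highest in SOR replicate 3, which was not so for Npy, Lamp5 and Reln. Pvalb measured 34.5, 28.9, 68.0 and 35.1 CPM after SOR and 34.1, 23.0, 32.5 and 32.6 CPM in the homecage. Sst measured 114, 90.5, 204 and 99.6 CPM after SOR and 132, 99.8, 87.2 and 108 CPM in the homecage. In both, replicate 3 lay far above the other 7 libraries, which overlapped between groups. Cck, the cholecystokinin gene, measured 236, 238, 469 and 277 CPM after SOR and 254, 182, 224 and 271 CPM in the homecage. The log2 changes of Pvalb, Sst and Cck were 0.44 (SE 0.24), 0.25 (SE 0.23) and 0.39 (SE 0.21), and without that library 0.10, -0.07 and 0.11. Npy measured 36.6, 35.0, 33.5 and 34.1 CPM after SOR and 33.0, 33.7, 25.2 and 35.0 CPM in the homecage. Its log2 change was 0.13 (SE 0.11), and 0.038 without homecage replicate 3, its lowest library.

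Against the mean of the other 3 SOR libraries, replicate 3 was higher by 1.06 log2 units in Pvalb, 1.02 in Sst and 0.91 in Cck. It was lower, at -0.84 in Gabra2, -0.64 in Gabrb1 and -0.63 in Gabra4. Across the 28 genes, Spearman's rho of this difference with transcript length was -0.399 in replicate 3 and ran from -0.464 to 0.699 in the other 18 libraries. Over all genes tested with a known length, rho was -0.0726 in replicate 3 and ran from -0.155 to 0.2 in the other 18. The 5 members with a longest transcript under 2000 bases, a limit set after the values were seen, are all interneuron markers (Sst, Pvalb, Cck, Npy and Lamp5). Their median difference was 0.908 in replicate 3, with 4 of 5 above 0, and between -0.393 and 0.191 in the other 18 libraries. Genes are not independent replicates, and the part of library size, RNA quality or dissection was not tested. This library also had the lowest number of genes detected, 27815, against 30165 or more in every other.

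**Figure D3:**
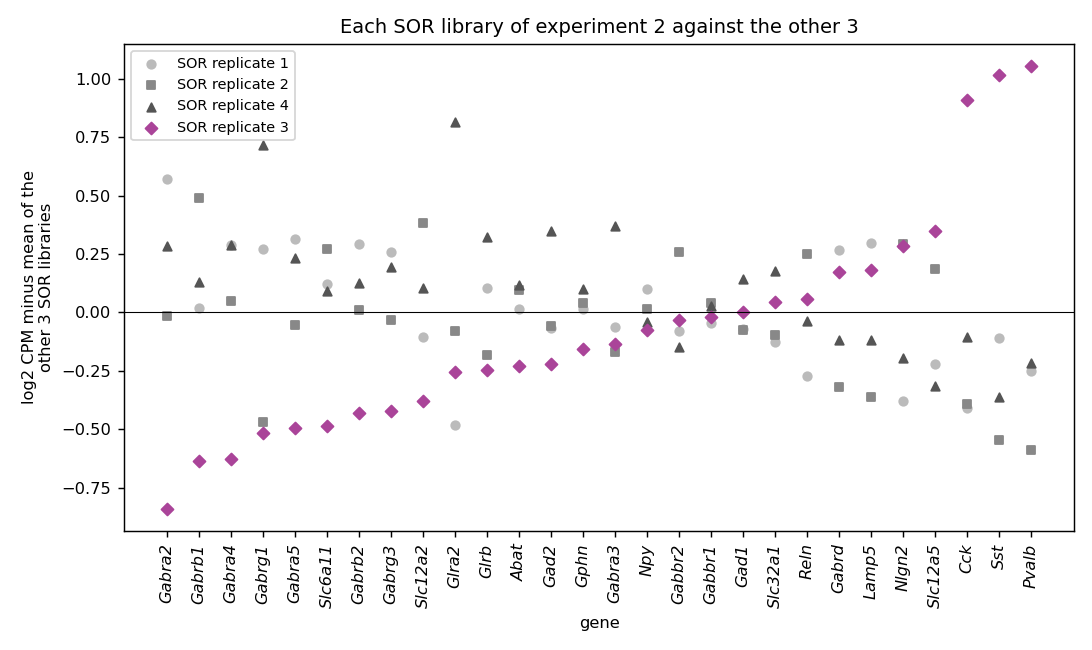
Log2 CPM of each SOR library of experiment 2 minus the mean of the other 3 SOR libraries (vertical axis), for the 28 genes ordered by replicate 3 (diamonds). Replicate 3 runs from -0.84 in Gabra2 to 1.06 in Pvalb, and its values enter the mean that the other libraries are set against.

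The intervals of the SOR comparison were wider than those of the DN comparison. Of the 28, 21 lay within 0.5 log2 units of 0 and all 28 within 1, from -0.61 at the low end of Gabrb1 to 0.96 at the high end of Pvalb. Of 21 other GABA system genes tested, 0 passed in edgeR and 2 had an unadjusted p under 0.05. Of 25 other interneuron genes, 0 passed and 4 had an unadjusted p under 0.05, where 7.60% of all genes did in that fit. Nos1, the neuronal nitric oxide synthase, had a log2 change of -0.32 (edgeR unadjusted p = 0.0166, adjusted p = 0.621), and Vip, a peptide of interneurons that inhibit other interneurons, one of 0.45 (unadjusted p = 0.0214, adjusted p = 0.621). Summed choroid plexus markers ran from 23.3 to 2185 CPM after SOR and from 44.3 to 172 in the homecage, and their part in these values was not tested.

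The third comparison set the 5 tTA+ libraries of experiment 2 against the 3 tTA- libraries, with exposure in the model. In edgeR 0 of the 28 genes passed, beside 82 of 22904 genes, or 0.358%, and DESeq2 and limma-voom also called 0 of them. There were 5 members with an unadjusted p under 0.05, against 5.71% of all genes: Glra2, Slc32a1, Gabra3 and Gad2 with higher and Gabrd with lower values in tTA+ libraries. Groups did not overlap in 3 members, against 5.80% of all genes, all lower in tTA+ (Gabrd, Gabrb2 and Gabra5). The median log2 change of the 28 was 0.07, with 17 higher and 11 lower, beside 0.013 and 53.2% higher over all genes.

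Glra2, the glycine receptor alpha 2 subunit, showed the widest difference. It measured 13.2, 12.05 and 21.1 CPM in tTA+ SOR replicates 2 to 4, 19.2 and 18.2 CPM in tTA+ homecage replicates 3 and 4, and 10.7, 12.09 and 10.6 CPM in the tTA- libraries (SOR replicate 1, homecage replicates 1 and 2). SOR replicate 4 and both tTA+ homecage libraries were well above all tTA- libraries, and SOR replicate 3 just overlapped them. The means were 16.7 ± 3.92 (SD, n = 5) and 11.1 ± 0.833 (SD, n = 3), a log2 change of 0.64 (SE 0.18, 95% interval 0.25 to 1.04, edgeR unadjusted p = 0.00455, adjusted p = 0.350). Of 18 alternatives the gene passed in 3 and missed in 15. It passed without SOR replicate 3 (log2 change 0.71, edgeR adjusted p = 0.0365), with no filter on low counts (adjusted p = 0.0032) and with all 19 libraries in 1 fit (adjusted p = 0.0123). In the others the adjusted p ran from 0.0649 in DESeq2, through 0.285 in limma-voom, to 1.0 in 4 of them, among these the fits without homecage replicate 2, 3 or 4. Over single libraries left out, the log2 change ran from 0.53 to 0.73. All 11 libraries of experiment 1 were tTA+ and held 13.2 to 15.5 CPM on their own scale.

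All 5 genes of GABA synthesis, packaging, uptake and breakdown had log2 changes above 0, from 0.06 to 0.30. Slc32a1 measured 17.6, 19.003 and 20.4 CPM in tTA+ SOR libraries, 25.7 and 20.9 in tTA+ homecage libraries and 17.4, 16.6 and 18.2 in tTA- libraries. Gad2 measured 135, 124 and 167 CPM, 201 and 163 CPM, and 135, 129 and 138 CPM in the same order. In both genes the tTA+ homecage libraries and SOR replicate 4 were above every tTA- library, and the remaining tTA+ libraries were not all so. The log2 changes were 0.30 (SE 0.12, edgeR adjusted p = 0.728) and 0.29 (SE 0.13, edgeR adjusted p = 0.859). Without homecage replicate 3 they were 0.19 and 0.18, and without SOR replicate 1, the lone tTA- library after SOR, 0.42 and 0.45. Gad1 measured 351, 365 and 392 CPM, 420 and 380 CPM, and 351, 321 and 338 CPM, a log2 change of 0.19 (SE 0.088, edgeR adjusted p = 0.885).

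Of the 9 GABA-A subunits, 7 had log2 changes below 0. Gabrd, the delta subunit of dentate granule cells, measured 26.2, 33.8 and 29.1 CPM in tTA+ SOR libraries, 30.4 and 30.3 in tTA+ homecage libraries and 35.5, 37.3 and 36.3 in tTA- libraries. Every tTA+ library was below every tTA- library, with means of 30.0 ± 2.76 (SD, n = 5) and 36.4 ± 0.911 (SD, n = 3) and a log2 change of -0.27 (SE 0.10, edgeR unadjusted p = 0.0252, adjusted p = 0.714). Without SOR replicate 3 its adjusted p was 0.0792. Over alternatives other than single libraries left out, its log2 change ran from -0.48 to -0.27. Gabrb2 (-0.21) and Gabra5 (-0.19) also had groups apart, Gabra5 by little, with a highest tTA+ library of 209.5 CPM and a lowest tTA- library of 210.0. Gabra3, an alpha subunit of synaptic receptors in other brain regions, went the other way, at 0.29 (SE 0.13, edgeR adjusted p = 0.832).

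Interneuron markers showed no common direction, with 3 above and 3 below 0. Pvalb measured 28.9, 68.0 and 35.1 CPM in tTA+ SOR libraries, 32.5 and 32.6 CPM in tTA+ homecage libraries and 34.5, 34.1 and 23.0 CPM in tTA- libraries. Sst measured 90.5, 204 and 99.6 CPM, 87.2 and 108 CPM, and 114, 132 and 99.8 CPM in the same order. The groups of both overlapped, and SOR replicate 3 was the highest library of each. The log2 change was 0.26 (SE 0.26) for Pvalb and -0.05 (SE 0.26) for Sst. Over alternatives other than single libraries left out, it ran from -0.065 to 0.36 for Pvalb and from -0.43 to 0.035 for Sst. Without SOR replicate 3 it was 0.071 for Pvalb and -0.25 for Sst (SE 0.10, edgeR unadjusted p = 0.0338, adjusted p = 0.464), and that of Cck went from 0.31 to 0.16. Npy, the neuropeptide Y gene, measured 35.0, 33.5 and 34.1 CPM, 25.2 and 35.0 CPM, and 36.6, 33.0 and 33.7 CPM, also with overlap. Its log2 change was -0.12 (SE 0.11), and ran from -0.24 without homecage replicate 4 to -0.018 without homecage replicate 3.

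**Figure D4:**
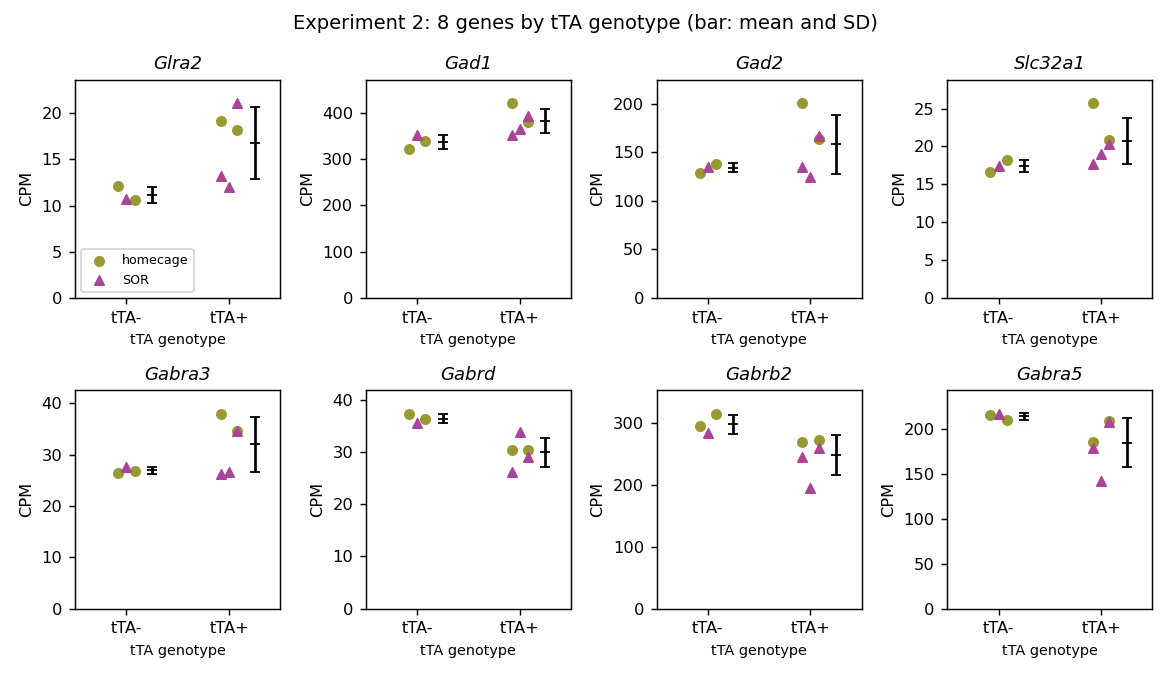
CPM of 8 genes in the 8 libraries of experiment 2 by tTA genotype, with triangles for SOR, circles for homecage and a bar for mean and SD. Gabrd, Gabrb2 and Gabra5 show tTA+ points all below the tTA- points, and Glra2 has 3 tTA+ points well above them.

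Dentate granule cell markers differed with tTA. Of 8 dentate granule cell markers, 5 fell in tTA+ libraries (Pla2g2f, C1ql2, Trpc6, Stxbp6 and Dsp, log2 changes from -2.78 to -1.06) and Tdo2 rose by 0.88, all at an adjusted p under 0.05 in edgeR. Their summed level was 329 to 443 CPM in tTA+ and 643 to 712 CPM in tTA- libraries, with no overlap and no marker at 0. Of 7 neocortex or subiculum markers 1 passed, Tbr1, at 1.63, while 4 of the 7 were below 0 and the median was -0.024; the sums were 198 to 218 CPM against 186 to 195. Summed striatum markers were 56.3 to 67.8 CPM against 40.2 to 48.4, with 0 of 6 called, and no gene passed on the CA1, CA3, thalamus, astrocyte, oligodendrocyte, choroid plexus or blood lists. All 8 oligodendrocyte markers were nevertheless above 0, with a median log2 change of 0.20, 2 of them at an unadjusted p under 0.05, and sums of 6144 to 7243 CPM in tTA+ and 5661 to 6311 CPM in tTA- libraries. The part of these differences in the values of Gabrd, Glra2 and the other members was not tested.

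The 2 libraries of experiment 2 with the highest thalamus marker sums were also high in Glra2 and GABA synthesis transcripts, but the order did not hold further down. Homecage replicate 3 and SOR replicate 4 had the highest sums of the 6 thalamus markers, 194 and 192 CPM, against 137 to 172 in the other 6 libraries of experiment 2. That list shares Calb2, the calretinin gene, with the interneuron list. The other 5 markers summed to 160 and 158 CPM in these 2 libraries and to 123 to 151 in the other 6. Glra2 measured 19.2 and 21.1 CPM there and 10.6 to 18.2 in the other 6. For Gad1 those 2 libraries held 420 and 392 CPM against 321 to 380, and for Gabrg1 44.8 and 42.7 CPM against 22.5 to 33.8. Gad2 held 201 and 167 CPM there against 124 to 163, and Slc32a1 held 25.7 and 20.4 CPM against 16.6 to 20.9, where homecage replicate 4 overlapped. Next by the 6 markers was SOR replicate 1, a tTA- library (172 CPM). It had 10.7 CPM of Glra2 and 135 CPM of Gad2, near the low end of both. Without Calb2, homecage replicate 4, a tTA+ library, came next (151 CPM), just above SOR replicate 1 (150 CPM). Homecage replicate 4 had 18.2 CPM of Glra2 and 163 CPM of Gad2, the highest of the other 6 libraries in both. These libraries were picked out after their values were seen, and the part of adjoining tissue was not tested.

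Without SOR replicate 3 the tTA comparison gave 10 members with an unadjusted p under 0.05 in edgeR, 6 higher and 4 lower, where 9.38% of all genes had one, and 1 of them, Glra2, passed. The intervals over all 8 libraries left 19 of the 28 genes within 0.5 log2 units of 0 and 27 within 1, with bounds from -0.69 for Gabra2 to 1.04 for Glra2. Of 21 other GABA system genes 0 passed in edgeR and 3 had an unadjusted p under 0.05. Of 25 other interneuron genes 0 passed and 5 had one, where 5.71% of all genes did in that fit. Kit, a receptor tyrosine kinase, had a log2 change of -0.35 (edgeR unadjusted p = 0.00127, adjusted p = 0.158), and Calb1, a calcium buffer that granule cells also make, one of -0.40 (unadjusted p = 0.00759, adjusted p = 0.445).

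Pairs of genes used by the same cell or receptor were compared across libraries within each experiment on log2 CPM, 14 relations in all, with Benjamini-Hochberg adjustment over them. In experiment 1 (n = 11) Sst and Npy varied together, with Pearson's r = 0.813 (permutation p = 0.00244, adjusted p = 0.0178) and Spearman's rho = 0.627 (permutation p = 0.0447, adjusted p = 0.157). Without the 2 most extreme libraries r was 0.744, and over deviations from each group's mean it was 0.802. In experiment 2 (n = 8) the same pair had r = 0.258 (exact permutation p = 0.43, adjusted p = 0.547) and rho = 0 (exact permutation p = 1.0, adjusted p = 1.0). There r was 0.714 without the 2 extreme libraries, of which SOR replicate 3 was the highest in Sst.

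Gad2 and Slc32a1 had the highest r in experiment 2, at 0.917 (exact permutation p = 0.00387, adjusted p = 0.0178), with rho = 0.738 (exact permutation p = 0.0458, adjusted p = 0.157) and r = 0.705 without the 2 extremes. Gad1 and Gad2 had r = 0.865 there (exact permutation p = 0.00508, adjusted p = 0.0178), rho = 0.667 (exact permutation p = 0.0831, adjusted p = 0.194) and r = 0.72 without the 2 extremes. Over deviations from each group's mean these pairs had r = 0.909 and 0.936. In experiment 1 they had r = 0.579 and 0.583, with adjusted permutation p of 0.146 for both.

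Gabra4 and Gabrd, partners in 1 receptor type, correlated in experiment 1 with r = 0.773 (permutation p = 0.00392, adjusted p = 0.0178) and rho = 0.736 (permutation p = 0.0122, adjusted p = 0.157). Without the 2 extreme libraries r was 0.558. In experiment 2 the pair had r = -0.0161 (exact permutation p = 0.985, adjusted p = 0.985) and rho = 0.31 (exact permutation p = 0.462, adjusted p = 0.588), with r = 0.397 without the 2 extremes. For Gabbr1 and Gabbr2, Lamp5 and Npy, and Slc6a11 and Gabrg1 the adjusted permutation p of r was 0.328 or above in both experiments. Whether a relation differed between experiments was not tested, nor was the part of library composition, which both genes of a pair share.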

How the data were processed

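The authors deposited raw counts per gene for the 19 libraries. Per the submitters' processing notes, STAR, SAMtools 1.6 and featureCounts 1.4.4 were used with mm10. The annotation, the strand setting and the treatment of reads that match several places are not given in the sources used here. Gene symbols, exon lengths and overlaps came from GENCODE M21, which named 51596 of 51789 genes. No column of values was left without a sample.

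Counts were tested with edgeR 4.0.16 (limma 3.58.1, R 4.3.3): the default filter on low counts, TMM scaling within each comparison's libraries, a robust quasi-likelihood fit, two-sided tests and Benjamini-Hochberg adjustment over all genes tested, called under 0.05. CPM used TMM within each experiment, and log2 CPM a prior count of 2. Level per kilobase is CPM over the union of exons. Correlations used log2 CPM and two-sided permutation tests, exact up to 8 libraries and with 100000 resamples above. Alternatives were DESeq2 1.42.0, limma-voom, other scalings, filters and thresholds, other sets of libraries, and each library left out. Within groups, libraries differed beyond counting noise (chi-square per degree of freedom from 4.63 to 73.4 over 37 pairs).

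The members and lists were chosen with earlier results of these data known. Values by library (for the 6 controls of experiment 1 mostly the lowest, median and highest) are given, per comparison, for called members, the 3 with the smallest p, and Gad1, Gad2, Slc32a1, Sst, Pvalb and Npy; of the other GABA system and interneuron lists the called genes and the 2 with the smallest p are named, and of marker lists the called genes. Cck and Gabra5 were added after their values were seen. On simulated counts with 100 genes changed by 1 log2 unit and 100 by 2, the fit recovered 85 and 99 for DN (22076 genes), 61 and 93 for SOR (21935 genes) and 53 and 91 for tTA (22534 genes), with 15, 10 and 13 false calls.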

Additional observations from a re-analysis of the deposited data

Results flagged for a closer look

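The CPM of each of the 28 genes was searched in each of the 4 groups for a single library far from the others by Dixon's criterion at the 95% level. Of 112 such sets 4 stood out, where chance flags about 1 in 20, or 5.6.

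Pvalb, the parvalbumin gene of fast-spiking interneurons, accounted for 3 of the 4. In SOR replicate 3 of experiment 2 it measured 68.02 CPM against 28.92 to 35.11 in the other SOR libraries. In homecage replicate 2 it measured 23.02 CPM against 32.47 to 34.12 in the other homecage libraries. In control replicate 5 of experiment 1 it measured 31.96 CPM against 25.43 to 27.67 in the other 5 controls. Slc6a11, the astrocyte GABA transporter, measured 81.03 CPM in control replicate 6 of experiment 1 against 88.62 to 92.04 in the other 5.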

How the results depend on the processing

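For DN, 2 of all genes and 0 of the 28 members passed under every alternative run. For SOR, the count of all genes (20) became 35 at an adjusted p under 0.1, 36 with no filter, 116 with DESeq2, 132 with all 19 libraries in 1 fit, 11 with tTA as a covariate, 0 in tTA+ mice alone, and 1 to 50 with single libraries left out; members stayed at 0 in all of these. For tTA, the count of all genes (82) became 133, 265, 255 and 366 under the first 4 of those, and 10 to 290 with single libraries left out. The tTA count of members was 1 with no filter, 1 with all 19 libraries, and 0 to 1 with single libraries left out. Without homecage replicate 3 or 4, or homecage replicate 2, the smallest adjusted p of any member was 1.0. The cause was not tested.

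Same-numbered libraries deviated together with r from -0.05 to 0.194 in experiment 1 (5 pairs, 1 matching best with its own number) and from 0.0454 to 0.391 in experiment 2 (4 pairs, 2 matching best), so the numbers were not taken to pair the libraries. With the replicate number as a block, 2 of all genes passed for DN, 9 for SOR and 0 for tTA, and 0 members in each. Under that block Gad1 in the SOR comparison moved to 0.0058 and Pvalb in the tTA comparison to -0.065, while Gad1, Gad2 and Slc32a1 in the tTA comparison came to 0.062, 0.16 and 0.087.

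Of 455 values of single members under alternatives, 435 kept direction and side of the threshold, 3 (Glra2) passed it, and 17 changed sign. Outside the block these were Gad1 for DN at 0.0067 with upper quartile scaling, Gad1 for SOR at 0.0019 with limma-voom and Sst for tTA at 0.035 with exposure left out. With single libraries left out, the ranges that crossed 0 were -0.029 to 0.0076 (Gad1) and -0.0021 to 0.071 (Gad2) for DN; -0.064 to 0.074 (Gad1), -0.23 to 6.5e-05 (Slc32a1) and -0.073 to 0.38 (Sst) for SOR; and -0.25 to 0.095 (Sst) for tTA. Levels per kilobase moved beyond their SD for 17 of 28 genes when the longest transcript replaced all exons. Precision limits all of this: the median reach of the 95% intervals to either side was 0.103 log2 units for DN, 0.266 for SOR and 0.28 for tTA.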
